A study of Drosophila melanogaster with 12 samples.

Results

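Glycolysis splits glucose into pyruvate in the cytosol, and each step is carried out by an enzyme that is conserved from yeast to animals. Hexokinase and phosphofructokinase catalyse steps that are nearly irreversible in the cell, whereas most enzymes further down run in both directions and also serve gluconeogenesis. In flies the pathway is fed by glucose and trehalose, and its product enters the mitochondria or is reduced to lactate by lactate dehydrogenase. The 10 genes described here are Hex-A, Pgi, Pfk, Tpi, Gapdh1, Gapdh2, Pgk, Eno, PyK and Ldh, which were chosen by exact symbol. All 10 of the 10 listed symbols were found among the 8802 genes of the deposited count table, and all 10 passed the filter on low counts that left 8296 genes for testing.

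RNA was sequenced from GFP-positive cells that had been sorted by FACS from regions R3 to R5 of the posterior midgut in pooled batches of virgin Drosophila melanogaster females, a population labelled early enterocytes. Every fly carried MyoIA-Gal4, a driver active in enterocytes, together with UAS-GFP and the temperature-sensitive repressor tubGal80TS. Flies were kept for 3 days at room temperature and then for 6 days at 29 °C to switch on the transgenes, so that they were 9 days old. There were 4 genotypes with 3 libraries each, made on different calendar days per the design text: a control from a cross to Canton-S, svb RNAi (UAS-SvbRNAi), SvbACT (UAS-SvbACT::GFP) and SvbREP (UAS-Svb3Kmut::GFP). Svb is Shavenbaby, a transcription factor encoded by ovo, and ACT and REP name its constitutive activator and repressor forms. The control cross lacked a UAS transgene other than GFP and also used a different parental stock, so transgene and stock cannot be told apart in any comparison with control. Both Svb forms carried a GFP tag, so GFP in these crosses came from the tag as well as from the reporter.

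Library totals ran from 3209182 to 8881488 counts, so that a floor of 3 counts corresponded to 0.338 to 0.935 CPM (counts-per-million, each count divided by its library total). Raw counts of ovo were 63, 11 and 5 in control and 78, 65 and 21 in the svb RNAi libraries, which are called by their label throughout. The log2 fold change of ovo was 1.00, with a 95% interval from -0.46 to 2.46 and an adjusted p of 0.344 in edgeR's quasi-likelihood test, so the knockdown itself is not seen in these counts. Expression of ovo was 5.03 log2 units above control in SvbACT (adjusted p 0.00266) and 5.91 in SvbREP (adjusted p 0.00145, same test). Of 10 enterocyte markers 9 were in the table, and their summed level was 2141 to 2620 CPM in control, 2012 to 4035 in svb RNAi, 2046 to 2366 in SvbACT and 1556 to 2498 in SvbREP. The largest parts of this sum in control were Vha16-1 (mean 1287 CPM) and Myo31DF (514). The 4035 was svb RNAi library 1, where alphaTry alone was at 782 CPM. All 8 progenitor markers were also detected, at sums of 6099 to 6787, 4401 to 5166, 5205 to 7231 and 5340 to 5725 CPM in the same order of genotypes, so the sorted cells carried both sets of transcripts. The enteroendocrine sum (11 of 11 markers) was 642 to 2222 CPM in control, 299 to 801 in svb RNAi, 173 to 336 in SvbACT and 158 to 232 in SvbREP. The visceral muscle sum (13 of 13 markers, mostly Tm1) was 1662 to 2609, 1143 to 1738, 1398 to 1517 and 1272 to 1442 CPM. By gene, 0 of these 13 lay above control in svb RNAi, SvbACT or SvbREP. Their median log2 fold changes were -1.64, -2.16 and -2.19, beside 0.16, 0.02 and 0.04 for all genes tested. None was called (13.9%, 1.42% and 1.21% of all genes were), and control libraries differed widely, as Mhc did from 44.0 to 264 CPM. The part of these markers was not tested. Of 5 hemocyte markers 2 were in the table and nearly all of their sum was crq, at 263 to 325, 118 to 141, 177 to 242 and 217 to 281 CPM, while Hml was at 0 in SvbACT. Fat body markers (6 of 8 in the table) summed to between 5.05 and 13.4 CPM and tracheal markers (2 of 5) to between 0.788 and 9.41 CPM over all libraries, and Lsp1beta was at 0 in control, svb RNAi and SvbREP.

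In control cells the level per transcript length differed widely among the glycolysis genes. Values here are CPM per kilobase of the median annotated transcript, mean ± SD over 3 libraries. Gapdh2, 1 of the 2 glyceraldehyde 3-phosphate dehydrogenase genes, stood highest at 259 ± 30.8, above every control value of the next gene. PyK (pyruvate kinase) at 186 ± 11.4 and Eno (enolase) at 184 ± 29.4 followed, with overlapping ranges. A middle set comprised Tpi (triose phosphate isomerase) at 115 ± 14.0, Hex-A (hexokinase) at 113 ± 11.9, Gapdh1 at 104 ± 21.3 and Pgk (phosphoglycerate kinase) at 98.4 ± 13.2. Neighbours in this set overlapped, but its ends did not, with Tpi at 107 or above and Pgk at 106 or below. Annotated transcripts run from 1112 to 1374 bases for Tpi, 1486 to 1893 for Pgk and 2512 to 4139 for Hex-A. Which of them the cells used was not tested, so close ranks between genes depend on the length taken. Pgi (phosphoglucose isomerase) lay lower at 64.0 ± 12.03. Pfk (phosphofructokinase) at 21.6 ± 5.66 and Ldh (lactate dehydrogenase) at 19.8 ± 9.40 were lowest and overlapped each other. In all, the 10 genes held 0.191% to 0.228% of a control library.

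The first comparison asks which transcripts of the libraries labelled svb RNAi differ from the control ones. Glycolysis transcripts from Pgi to Ldh all lay above control in mean level there, by 1.24- to 2.40-fold, while Hex-A, at the entry to the pathway, lay below it. Only Pfk passed the test on its own, with a rise of 1.68-fold. Thus 1 of 10 genes was called, against 13.9% of all 8296 genes tested (9.28% higher), so the share of calls was close to the background. The median log2 fold change of the 10 genes was 0.45, beside 0.16 for all genes tested, and 9 of the 10 lay above zero and above the median of all genes, where 61.7% of all genes lay above zero. In the same comparison 8 of the 10 genes had no svb RNAi library as low as any control library, and 25.7% of all genes did so. Genes higher in 3 of 3 pairs of libraries with the same number were 9 of 10, against 36% of all genes. The sample titles number the svb RNAi libraries differently, and by those numbers 8 of 10 genes were higher in 3 of 3 pairs, against 33.4% of all genes. Genes without overlap are higher in 3 of 3 pairs under any numbering. For those 8 genes the pair counts therefore repeat the overlap count, and only Pgi was added by the same-numbered pairs.

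**Figure D1:**
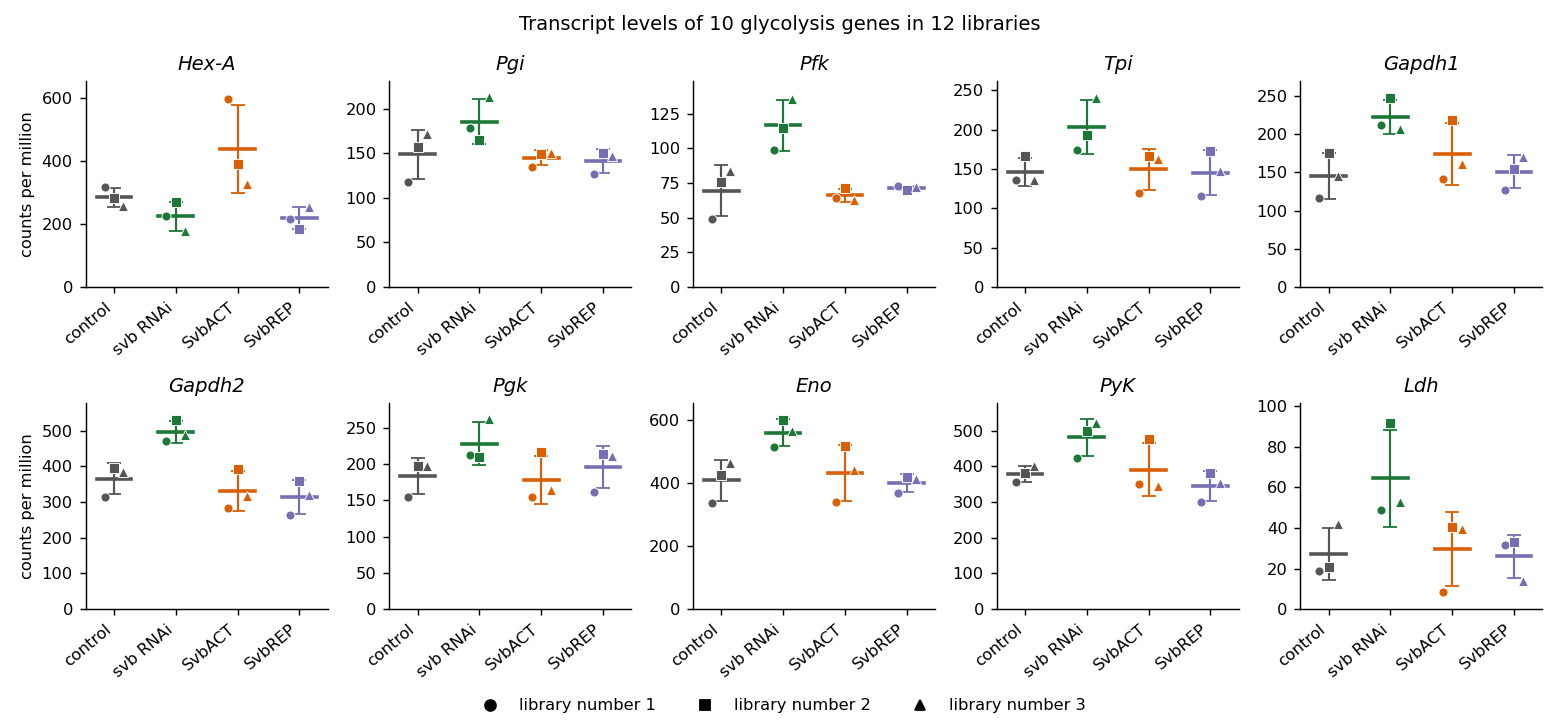
CPM of the 10 glycolysis genes in each of 12 libraries, with a panel for each gene, the genotypes on the horizontal axis and a linear vertical axis that starts at zero. Symbols give the library number, thick lines the mean and bars the SD over 3 libraries; from Pfk to Ldh the svb RNAi libraries sit above every control library, while Hex-A is highest in SvbACT.

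Hex-A phosphorylates glucose and so commits it to the cell. Its level was 316, 282 and 256 CPM in control libraries 1, 2 and 3, and 225, 268 and 178 CPM in svb RNAi. It was 595, 389 and 327 CPM in SvbACT and 214, 184 and 254 CPM in SvbREP. The svb RNAi library numbered 2 lay above control library 3, so these ranges overlapped, whereas every SvbACT library lay above every other library of the series, and every SvbREP library lay below every control library. Against control the log2 fold change in svb RNAi was -0.35 (SE 0.22, edgeR quasi-likelihood adjusted p 0.306), and it was -0.21 without svb RNAi library 3 (0.609). Hex-A was the only one of the 10 genes below control in mean level in svb RNAi, and it was lower in 3 of 3 same-numbered pairs, or in 2 of 3 by the numbers in the sample titles. The single annotated exon block of this gene lies on chromosome X from 9585675 to 9589813 on the plus strand of dm6.

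Pgi converts glucose 6-phosphate to fructose 6-phosphate. Its level was 117, 157 and 171 CPM in control, 178, 165 and 213 in svb RNAi, 135, 150 and 150 in SvbACT and 126, 150 and 147 in SvbREP. The svb RNAi and control ranges overlapped, and the log2 fold change between them was 0.32 (SE 0.16, edgeR quasi-likelihood adjusted p 0.197).

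Pfk phosphorylates fructose 6-phosphate and is the classical control point of the pathway. Its level was 49.0, 75.9 and 83.6 CPM in control and 99.2, 115 and 136 CPM in svb RNAi. In SvbACT it was 64.2, 71.6 and 62.8 CPM and in SvbREP 73.1, 70.2 and 71.8 CPM. All 3 svb RNAi libraries lay above all 9 others. Pfk rose by 0.75 on the log2 scale in svb RNAi (SE 0.19, 95% interval 0.33 to 1.16, edgeR quasi-likelihood adjusted p 0.0242). The call was lost with TMM scaling (0.59, adjusted p 0.0569) and when only the control and svb RNAi libraries were fitted (adjusted p 0.0545). It was also lost without control library 1 (0.55, adjusted p 0.0864) or 2 (0.82, 0.0525), and without svb RNAi library 2 (0.76, 0.0510) or 3 (0.62, 0.0900). The gene spans 10109740 to 10117457 on chromosome 2R, plus strand, dm6, with 14 exon blocks.

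Tpi interconverts the triose phosphates that aldolase releases. Its level was 136, 167 and 136 CPM in control, 174, 194 and 241 in svb RNAi, 120, 166 and 163 in SvbACT and 116, 173 and 147 in SvbREP. The lowest svb RNAi library was just above the highest control library, with a log2 fold change of 0.47 (SE 0.19, edgeR quasi-likelihood adjusted p 0.108).

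Gapdh1 and Gapdh2 encode the enzyme that oxidises glyceraldehyde 3-phosphate. Gapdh1 was at 116, 176 and 145 CPM in control, 213, 248 and 207 in svb RNAi, 141, 219 and 161 in SvbACT and 127, 155 and 170 in SvbREP. Gapdh2 was at 315, 395 and 385 CPM in control, 471, 531 and 487 in svb RNAi, 282, 393 and 317 in SvbACT and 265, 358 and 320 in SvbREP. For both genes the 3 svb RNAi libraries lay above all control and SvbREP libraries, and for Gapdh1 SvbACT library 2 reached into the svb RNAi range. The log2 fold change against control was 0.61 for Gapdh1 (SE 0.19, adjusted p 0.0524) and 0.45 for Gapdh2 (SE 0.16, adjusted p 0.0732, both edgeR quasi-likelihood). The paralogs are close in sequence, and how the authors' counting treated reads that fit both is not given in the sources used here. Their separate values are therefore uncertain. Within a library, Gapdh2 had 2.24 to 2.71 counts for each Gapdh1 count in control, 2.14 to 2.36 in svb RNAi, 1.79 to 2.00 in SvbACT and 1.88 to 2.31 in SvbREP. Every SvbACT library was therefore below every control library in this ratio, which does not depend on the scaling but may depend on how such shared reads were treated. Neither gene was called in SvbACT against control under any setting. Gapdh1 lies on chromosome 2R and Gapdh2 on X (15868145 to 15869661, plus strand, dm6).

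Pgk and PyK make the ATP of glycolysis, and Eno forms the phosphoenolpyruvate between them. Pgk was at 155, 197 and 198 CPM in control, 212, 210 and 262 in svb RNAi, 155, 216 and 165 in SvbACT and 162, 214 and 211 in SvbREP. Eno was at 337, 427 and 464 CPM in control, 515, 601 and 566 in svb RNAi, 340, 518 and 441 in SvbACT and 369, 421 and 414 in SvbREP. PyK was at 355, 380 and 401 CPM in control, 422, 499 and 521 in svb RNAi, 351, 476 and 344 in SvbACT and 300, 383 and 352 in SvbREP. For each of these genes no svb RNAi library was as low as any control library, but SvbACT library 2 overlapped the svb RNAi range, and for Pgk so did SvbREP libraries 2 and 3. The log2 fold change in svb RNAi was 0.31 for Pgk (adjusted p 0.243), 0.45 for Eno (0.0783) and 0.34 for PyK (0.144) in edgeR's quasi-likelihood test, so none was called. Exons of Eno share 362 bases (9.74% of its exon bases) with Rrp40 on the opposite strand, and those of Pgk share 65 bases (3.08%) with Cwc25. The strand setting of the counting is not given in the sources used here, but the partners had no more than 121 and 357 counts in any library. The other 8 genes share no exon bases with another annotated gene.

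Ldh reduces pyruvate to lactate and regenerates NAD+. It had 104, 111 and 164 raw counts in control, 236, 754 and 170 in svb RNAi, 62, 360 and 186 in SvbACT and 241, 178 and 46 in SvbREP. In CPM these were 18.7, 20.8 and 41.9 in control, 48.7, 91.7 and 53.0 in svb RNAi, 8.37, 40.5 and 39.6 in SvbACT and 31.5, 33.0 and 13.7 in SvbREP. The svb RNAi libraries lay above all others, but libraries within a genotype differed widely. Its log2 fold change in svb RNAi was the largest of the 10 genes, 1.26, with an SE of 0.52 and an adjusted p of 0.118 (edgeR quasi-likelihood). The mean SD within genotypes was 0.78 log2 units for Ldh, which 85.7% of all genes fell below, and 0.17 to 0.28 for the other 9 genes, beside 0.31 for the median gene. For each 100 PyK counts there were 5.26 to 10.5 Ldh counts in control, 10.2 to 18.4 in svb RNAi, 2.38 to 11.5 in SvbACT and 3.89 to 10.5 in SvbREP, and the first 2 ranges overlapped.

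**Figure D2:**
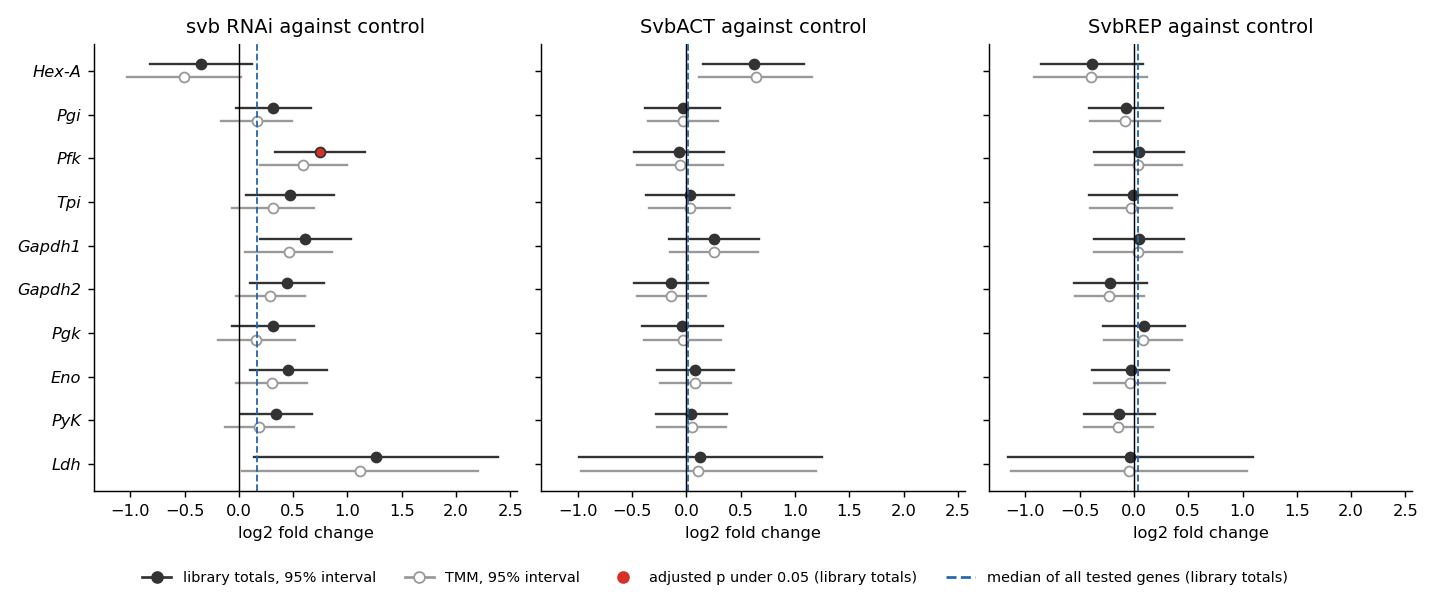
Log2 fold change of each glycolysis gene against control in svb RNAi, SvbACT and SvbREP, with 95% intervals. Filled points are scaled to library totals and open points by TMM, red marks an adjusted p under 0.05 with library totals, and the dashed line is the median of all tested genes; 9 of 10 points lie right of zero in svb RNAi, and in SvbACT and SvbREP the points other than Hex-A lie near zero.

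The call in svb RNAi depended on the scaling and on the pairing of libraries. The libraries labelled svb RNAi had TMM factors of 1.07 to 1.09 and the others 0.914 to 1.00, and TMM moved the median over all genes from 0.16 to 0.01 log2 units. The 10 genes moved with it, from a median of 0.45 to 0.30, and 9 of 10 stayed above zero and above the median of all genes under both scalings and under each of the 20 other settings tried. With TMM, 0 of 10 genes was called (11.1% of all genes; 3 of the 10 at an unadjusted p under 0.05, and 1, Pfk, called by DESeq2 at an adjusted p of 0.0362, beside 15.5% of all genes). Without overlap there were then 5 genes higher (18.1% of all genes) and 1, Hex-A, lower (17.3% of all genes). With a replicate block, which the shared library numbers allow, 5 of 10 genes rose (23.7% of all genes were called and 16.3% rose): Gapdh1 (0.63, adjusted p 0.00708), Pfk (0.76, 0.00808), Gapdh2 (0.45, 0.0116), Eno (0.46, 0.0137) and Tpi (0.46, 0.0304). With TMM and the block together, Pfk (adjusted p 0.0260) and Gapdh1 (0.0322) were called, beside 19.6% of all genes. Without SvbACT library 1, which enters only the estimate of the spread, Gapdh1, Eno and Ldh were called besides Pfk. Without SvbACT library 2 Gapdh1 was called besides Pfk. Over all genes the calls were then 1436 and 1122, beside 1153 with all libraries. The summed level of progenitor markers did not overlap between svb RNAi (4401 to 5166 CPM) and control (6099 to 6787). Its members did not move together: 4 of 8 fell and 1 rose in svb RNAi, where 4.62% and 9.28% of all genes did. Dl, the Notch ligand of intestinal stem cells, rose by 1.54 log2 units (mean 178 CPM in control and 518 in svb RNAi, edgeR quasi-likelihood adjusted p 0.00101), while zfh2 (-1.06, 0.00437), esg (-0.73, 0.0174) and klu (-0.58, 0.0256) fell. The rise of Dl was not particular to svb RNAi: it was also called higher than control in SvbACT and SvbREP (means 425 and 349 CPM). Between svb RNAi and control the sum of hemocyte markers, nearly all of it crq, did not overlap either (118 to 141 against 263 to 325). The log2 fold change of crq was -1.25 (edgeR quasi-likelihood adjusted p 0.000791, where 4.62% of all genes fell). Hml, the other hemocyte marker in the table (2 of 5 were found), went the other way at low counts, from a mean of 0.24 CPM in control to 2.89 in svb RNAi. The fall of crq is therefore that of 1 gene and is not a measure of hemocytes. The part of these markers in the differences of the glycolysis genes was not tested. In these bulk samples fewer cells of a type and less RNA per cell cannot be told apart.

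The next comparisons ask how the same transcripts differ from control when the activator or the repressor form of Svb is expressed. Neither called any of the 10 genes. In SvbACT 0 of 10 genes was called (1.42% of all genes), with 1 gene, Hex-A, at an unadjusted p under 0.05 and 0 called by DESeq2 (3.94% of all genes). The log2 fold change of Hex-A was 0.62 (SE 0.22, 95% interval 0.15 to 1.09, edgeR quasi-likelihood adjusted p 0.223), and without SvbACT library 1 it was 0.33 (0.370). The other 9 genes lay between -0.14 and 0.25. Hex-A was the only one of the 10 genes above every control library (7.93% of all genes were), and with TMM its ranges overlapped. In SvbREP 0 of 10 genes was called (1.21% of all genes), with 0 at an unadjusted p under 0.05 and 0 by DESeq2 (3.31% of all genes). Hex-A had a log2 fold change of -0.39 there (SE 0.22, 95% interval -0.86 to 0.08, edgeR quasi-likelihood adjusted p 0.480). It lay below every control library (9.88% of all genes did), though not with TMM. For the other 9 genes the SvbREP values lay between -0.22 and 0.09, and intervals such as -0.37 to 0.46 for Pfk leave room for changes of moderate size. The median of the 10 genes was 0.04 in SvbACT and -0.03 in SvbREP, beside 0.02 and 0.04 for all genes tested. Of the 11 enteroendocrine markers 6 fell in each of these comparisons, where 0.868% and 0.675% of all genes did. Among them were CCHa1 (-2.37 in SvbACT and -3.77 in SvbREP, edgeR quasi-likelihood adjusted p 0.0288 and 0.00332), CCHa2 (-2.91 and -3.28, 0.0108 and 0.00613), Syt1 (-2.33 and -2.35, 0.0135 and 0.0140) and amon (-2.82 and -2.89, 0.0136 and 0.0140). In svb RNAi CCHa2 alone of them was called (-1.99, 0.0144), where 4.62% of all genes fell. Of the 8 progenitor markers Dl alone was called in SvbACT and in SvbREP, higher in each (0.554% and 0.53% of all genes were). The part of these markers was not tested.

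Hex-A was the glycolysis gene that separated the activator from the repressor form most widely. Set directly against SvbREP, its level in SvbACT was 1.01 log2 units higher, or 2.01-fold (SE 0.22, 95% interval 0.53 to 1.48). The unadjusted p was 0.000486, but over all genes the edgeR quasi-likelihood adjusted p was 0.172, so Hex-A was not called, and 0 of 10 genes was (0.0964% of all genes). Adjusted p was 0.0665 with the replicate block and 0.0117 in DESeq2, which called it and 0.494% of all genes. Without SvbACT library 1 the log2 fold change was 0.72 (edgeR quasi-likelihood adjusted p 0.489). The Hex-A values of all libraries did not overlap under either scaling, which with library totals held for 4.23% of all genes in this direction. The other 9 genes lay between -0.13 and 0.21 log2 units.

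**Figure D3:**
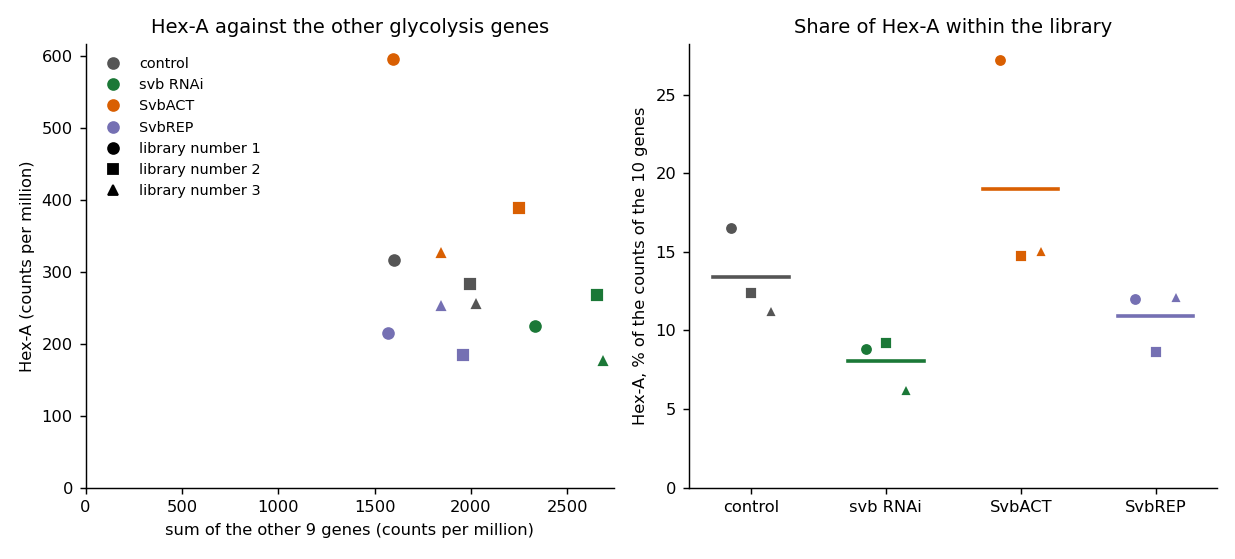
Left, CPM of Hex-A against the summed CPM of the other 9 glycolysis genes in each of 12 libraries, on linear axes that start at zero; right, Hex-A counts as a percentage of the counts of the 10 genes, with the mean of each genotype as a line. The svb RNAi libraries combine high sums with low Hex-A, and SvbACT library 1 stands highest at 27.2%.

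The share of Hex-A among the counts of the 10 genes, which no scaling of the libraries changes, was highest on average in SvbACT and lowest in svb RNAi. It was 16.5%, 12.4% and 11.2% in control, 8.80%, 9.18% and 6.21% in svb RNAi, 27.2%, 14.7% and 15.1% in SvbACT and 12.01%, 8.61% and 12.1% in SvbREP. All SvbACT libraries lay above all svb RNAi and SvbREP libraries, and all svb RNAi libraries lay below all control libraries. SvbACT and control overlapped, since control library 1 lay above SvbACT libraries 2 and 3, and the SvbACT mean includes library 1 at 27.2%. The share depends on the other 9 genes as well as on Hex-A. How often other genes separate in such shares or ratios was not computed. The other 9 genes together held 1599, 1996 and 2025 CPM in control, 2334, 2653 and 2686 in svb RNAi, 1597, 2251 and 1844 in SvbACT and 1570, 1957 and 1846 in SvbREP. In each genotype library 1 was the lowest of the 3 in this sum. Hex-A counts per Pgi count, the ratio of the first enzyme to the second, were 1.50 to 2.69 in control, 0.835 to 1.63 in svb RNAi, 2.18 to 4.41 in SvbACT and 1.23 to 1.73 in SvbREP. Pfk counts per Pgi count were 0.417 to 0.489 in control, 0.556 to 0.696 in svb RNAi, 0.419 to 0.479 in SvbACT and 0.467 to 0.578 in SvbREP, so that this ratio was higher in every svb RNAi library than in every control and SvbACT library.

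The libraries labelled svb RNAi were next compared with each Svb form, which shares the svb RNAi libraries between both comparisons. Against SvbACT, Hex-A fell by 0.96 on the log2 scale (SE 0.22, 95% interval -1.44 to -0.49, edgeR quasi-likelihood adjusted p 0.0430). It was the only one of the 10 genes called, where 1.81% of all genes were called and 1.17% were lower. With TMM its value was -1.14 (adjusted p 0.0277, beside 2.54% of all genes called). The call was lost when only these 2 genotypes were fitted (adjusted p 0.109), and without SvbACT library 1 the value was -0.68 (0.166). Without svb RNAi library 1, 2 or 3 the adjusted p was 0.108, 0.0516 or 0.145, without control library 2 or 3 it was 0.0663 or 0.0626, and without SvbREP library 2 it was 0.0539. Without control library 1 Pfk, and without SvbACT library 2 Gapdh2, was called besides Hex-A. Pfk had a log2 fold change of 0.81 in svb RNAi against SvbACT (SE 0.19, adjusted p 0.0516), and with the replicate block Pfk (0.80, 0.0184) and Gapdh2 (0.60, 0.00932) rose too, beside 5.93% of all genes called. The svb RNAi libraries lay above every SvbACT library for 5 of the 10 genes (17.1% of all genes), and below for Hex-A (6.76% of all genes).

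Against SvbREP, Gapdh2 rose by 0.66 on the log2 scale in the libraries labelled svb RNAi (SE 0.16, 95% interval 0.32 to 1.00, edgeR quasi-likelihood adjusted p 0.0492). It was 1 of 10 genes called, where 2.06% of all genes were called and 0.687% were higher. The call was at the edge of the threshold: it was lost with TMM (0.52, adjusted p 0.0918, where 2.59% of all genes were called), without the filter on low counts (0.0502) and with these 2 genotypes alone (0.0894). Leaving out a single library ended it in 9 of 12 cases: without any 1 svb RNAi library (0.0913, 0.132 and 0.106 for 1, 2 and 3), any 1 SvbREP library (0.133, 0.0577 and 0.145), control library 2 (0.0738) or 3 (0.0759), or SvbACT library 3 (0.0731). Without control library 1 Pfk was called besides Gapdh2. With the replicate block 5 of 10 genes rose, beside 5.67% of all genes called: Gapdh2 (adjusted p 0.00459), Eno (0.0321), Gapdh1 (0.0321), Pfk (0.0349) and PyK (0.0379). The svb RNAi libraries lay above every SvbREP library for 8 of the 10 genes (16.4% of all genes). The ranges overlapped for Pgk and Hex-A. Hex-A was at 0.04 log2 units with library totals and at -0.10 with TMM, so its sign against SvbREP depended on the scaling.

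A test for any difference among the 4 genotypes called 3 of the 10 genes, beside 7.3% of all genes: Hex-A (edgeR quasi-likelihood adjusted p 0.0284), Pfk (0.0389) and Gapdh2 (0.0491). With TMM Hex-A was called alone (0.0278, beside 6.58% of all genes). With the replicate block Eno and Gapdh1 were called as well (5 of 10, beside 17.6% of all genes). None of the 3 calls was left without control library 2, svb RNAi library 1 or 3, or SvbREP library 2. There was 1 left without control library 3, svb RNAi library 2, SvbACT library 3 or SvbREP library 3, and 2 without library 1 of control, SvbACT or SvbREP. In the authors' deposited table, Gapdh1 and Pfk are marked higher in svb RNAi, 2 of the 10 genes beside 14.0% of all genes marked in either direction. That deposited table marks 0 of the 10 genes in SvbACT and 0 in SvbREP.

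Genes around the core of glycolysis were examined from lists of sugar metabolism. Against control, 8 of the 43 genes tested from these lists rose in the libraries labelled svb RNAi and 0 fell, where 13.9% of all genes were called, 9.28% higher and 4.62% lower. They belonged to the use of pyruvate and glycerol 3-phosphate, to the pentose phosphate pathway and to glycogen. Among genes for the fates of pyruvate and glycerol 3-phosphate, 4 of 9 rose and 0 fell (9.28% and 4.62% of all genes did), with a list median of 0.55 log2 units beside 0.16 for all genes. Pdha, a subunit of the first enzyme of the pyruvate dehydrogenase complex, was at 188, 177 and 164 CPM in control and 281, 303 and 265 in svb RNAi, a rise of 0.68 (edgeR quasi-likelihood adjusted p 0.0128). Its partner subunit Pdhb rose by 0.95 (from 102, 137 and 130 to 224, 259 and 226 CPM, adjusted p 0.0245). The dihydrolipoamide acetyltransferase of the same complex, muc, rose by 0.81 (from 96.2, 115 and 125 to 188, 210 and 190 CPM, adjusted p 0.0229). For these 3 genes every svb RNAi library lay above every control library. Gpo1, the mitochondrial glycerol 3-phosphate oxidase, rose by 0.64 (adjusted p 0.0247), but not with TMM (0.48, adjusted p 0.0701) nor in DESeq2 (0.0609).

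In the pentose phosphate pathway, which branches off at glucose 6-phosphate, 2 of 7 genes rose and 0 fell (9.28% and 4.62% of all genes did), with a list median of 0.78 beside 0.16 for all genes. Rpe, ribulose phosphate epimerase, rose by 1.02 from 13.6, 16.8 and 16.6 CPM in control to 29.9, 31.1 and 34.3 in svb RNAi (edgeR quasi-likelihood adjusted p 0.0236). Pgd, phosphogluconate dehydrogenase, rose by 1.02 from 41.6, 57.8 and 69.3 to 99.8, 102 and 142 CPM (adjusted p 0.0300). Both ranges were separate, and both calls held with TMM (adjusted p 0.0378 and 0.0477). Among trehalose and glycogen genes 2 of 7 rose and 0 fell (9.28% and 4.62% of all genes did), while the list median was 0.01. The glycogen branching enzyme AGBE rose by 0.96 from 26.9, 26.2 and 41.7 CPM to 52.6, 55.6 and 76.0 (adjusted p 0.0223). Glycogen phosphorylase GlyP rose by 0.78 from 214, 330 and 367 CPM to 465, 596 and 506 (adjusted p 0.0266), a call lost with TMM (0.0522). Tps1, trehalose 6-phosphate synthase, had only 8, 37 and 37 raw counts in control and 2, 5 and 5 in svb RNAi, with a log2 fold change of -2.85 that was not called (adjusted p 0.0851, same test). DESeq2 called Tps1 (-3.01, adjusted p 0.0263) and Treh, trehalase (-0.64, 0.0403), lower. With the replicate block Taldo, transaldolase, rose (adjusted p 0.0178) and Treh fell (0.0187) as well. Of these 8 calls that of Pdha alone held without any single library, at adjusted p-values up to 0.0464. The other 7 were lost without control library 1 or 2 or svb RNAi library 3, GlyP and muc also without svb RNAi library 2, and Gpo1, Pdhb and Rpe also without svb RNAi library 2 or control library 3, at adjusted p-values up to 0.120.

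**Figure D4:**
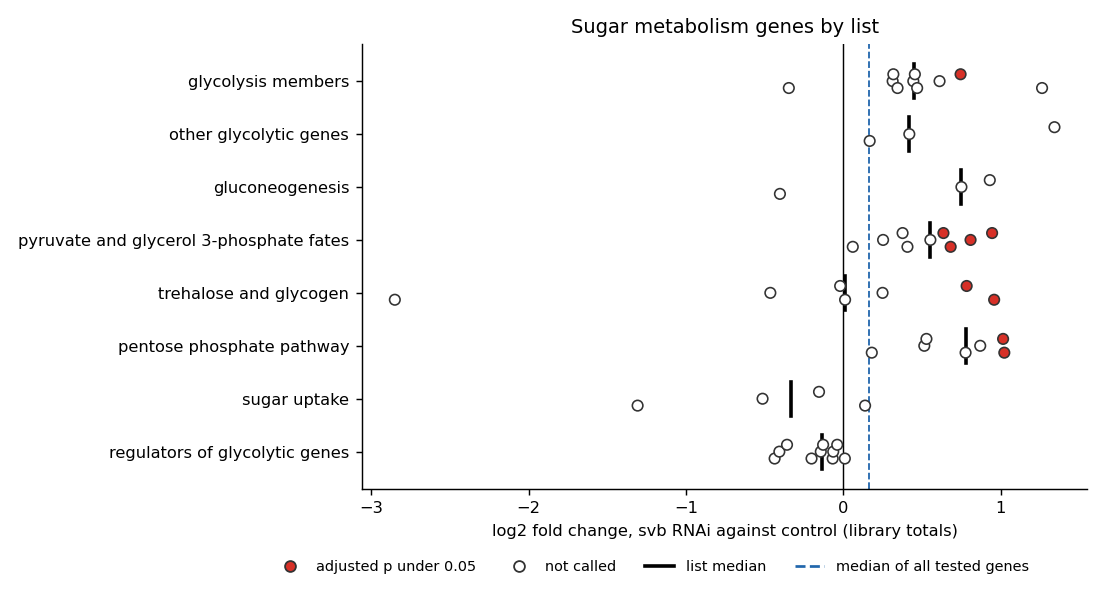
Log2 fold change in the libraries labelled svb RNAi against control (horizontal axis, library totals) of each tested gene in 8 lists of sugar metabolism. Filled points have an adjusted p under 0.05, black bars are list medians and the dashed line is the median of all tested genes, 0.16; called genes lie to the right, and the sugar uptake genes and regulators lie mostly left of the dashed line.

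No gene was called in the other lists in svb RNAi against control, beside 13.9% of all genes. Of the 20 genes tested there, 4 had an unadjusted p under 0.05. DESeq2 called 1 of the 20, sima, beside 15.5% of all genes. Further glycolytic genes were tested for 3 of 14 listed symbols: Ald1 (aldolase) at 0.17 log2 units, Pglym78 (phosphoglycerate mutase) at 0.42 and CG7069 at 1.34, with adjusted p-values of 0.475, 0.198 and 0.118 (edgeR quasi-likelihood). With the replicate block Pglym78 was called (adjusted p 0.0473). Of the gluconeogenesis genes 3 were tested, and PCB, pyruvate carboxylase, had the smallest adjusted p (0.93 log2 units, 0.0559) and was called with the block (0.0197). Of the 4 tested sugar uptake genes, none was called, from sut2 at -1.31 to sut1 at 0.14 log2 units. Regulators known to act on glycolytic genes, such as ERR, the estrogen-related receptor, and sima, the hypoxia-inducible factor subunit, gave 0 of 10 calls and a median of -0.14. ERR had a log2 fold change of 0.01 (adjusted p 0.980), and sima had -0.41 (adjusted p 0.0836) and was called lower with TMM (0.0462) or with the block (0.0364). Against control 0 of the 43 genes tested in these lists was called in SvbACT or in SvbREP by edgeR, with 5 at an unadjusted p under 0.05 in each, where 1.42% and 1.21% of all genes were called. DESeq2 called 2 of them in SvbACT, Tps1 and sut2, and 0 in SvbREP, where it called 3.94% and 3.31% of all genes.

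Patterns of other genes were set beside that of glycolysis as a description. For each of 5901 genes with a mean of at least 10 CPM, log2 CPM was centred over the 12 libraries and compared with the mean pattern of the 10 glycolysis genes by root-mean-square distance. Each glycolysis gene enters that mean and is drawn toward it, so its distance compares unevenly with those of other genes. Among the glycolysis genes Eno was nearest to their mean, at 0.05 log2 units, while Hex-A at 0.67 and Ldh at 0.78 were farthest, with 5156 and 5335 genes nearer. The nearest genes outside the 10 were MESR6 at 0.10, followed by deltaCOP and Ide at 0.11, Tak1 at 0.11 and Cdk9 at 0.11. MESR6 had a log2 fold change of 0.47 in svb RNAi, 0.15 in SvbACT and -0.06 in SvbREP.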

How the data were processed

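Counts per gene were made and deposited by the authors as whole numbers, 1 table for 12 libraries. Per the submitters' processing notes the tools were FastQC 0.11.5, STAR 2.5.2b, HTSeq 0.6.0 and edgeR, with genome build dm6; their settings are not given in the sources used here. The table also holds the authors' score of -1, 0 or 1 per gene and comparison (lower, not called, higher), which was copied and not tested.

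Counts were fitted in R 4.3.3 with edgeR 4.0.16 (glmQLFit, glmQLFTest) over all 12 libraries with genotype as the only factor. Libraries were scaled to their totals and filterByExpr (minimum count 10) left 8296 genes. The 6 pairwise comparisons and a test of any difference were two-sided, with Benjamini-Hochberg adjustment over all genes tested; a gene was called at an adjusted p under 0.05. Every adjusted p comes from this fit unless another is named, and p-values weigh a difference against the spread between these samples. The steps were checked on simulated data.

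Alternatives were TMM, DESeq2 1.42.0, no filter, a mean of at least 10 CPM, replicate blocks, the 2 genotypes alone and each library left out. Libraries are numbered by the deposited columns; the sample titles number the svb RNAi libraries differently. Same-numbered libraries deviated together from their genotype means (r 0.103 to 0.412, mean 0.228, over 0.1 in 18 of 18 pairs), so these numbers were taken to pair them.

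All 10 glycolysis genes are named, with the other listed genes named where called, at most 4 a list by smallest adjusted p; genes named from lists without a call, by an alternative or from the end of a range were chosen after their values were seen. The genes and lists were chosen with earlier results of these data known. Positions and transcript lengths come from an annotation in dm6 coordinates. Promoter letters were not searched here.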

Additional observations from a re-analysis of the deposited data

How the results depend on the processing

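In the comparison that called it, no glycolysis gene changed sign under any setting tried; Hex-A in svb RNAi against SvbREP, which was not called, went from 0.04 to -0.10 with TMM and -0.11 with DESeq2, and ran from -0.11 to 0.18 with a library left out. Against control, 1 of 10 genes was called in svb RNAi; the count was 0 with TMM, 2 with a mean of at least 10 CPM, 5 with the replicate block, 3 with a block from the numbers in the sample titles (which pair the libraries in 9 of 18 cases), 2 with TMM and the block (chosen after seeing the data), 3 with the 2 genotypes alone, and 0 to 4 when each library was left out, 4 without SvbACT library 1 and 2 without SvbACT library 2. SvbACT and SvbREP against control gave 0 in all settings. SvbACT against SvbREP gave 0, and 1 with DESeq2. The count for svb RNAi against SvbACT was 1, but 2 with DESeq2 or a mean of at least 10 CPM, 3 with the block or with TMM and the block, 0 with the 2 genotypes alone and 0 to 2 with a library left out; with the title block Hex-A was not called (adjusted p 0.0721) and Gapdh2 was. For svb RNAi against SvbREP it was 1, but 0 with TMM, without the filter or with the 2 genotypes alone, 5 with the block and 0 to 2 with a library left out. Any difference gave 3, 1 with TMM, 5 with the block, 1 with the title block and 0 to 3 with a library left out. The cause of these shifts was not tested. The block changed no other call of a glycolysis gene than those given.

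Over all genes the calls in svb RNAi against control were 1153 (770 higher, 383 lower), 923 with TMM (406 higher, 517 lower), 1965 with the block and 380 to 1436 with a library left out. They were 1167 with a mean of at least 10 CPM, 1153 with the title block and 1244 with the 2 genotypes alone. SvbACT against control gave 118, with 327 in DESeq2, 309 with the block, 319 with TMM and the block, 69 at a mean of at least 10 CPM, 61 with the title block and 20 to 159 with a library left out. SvbREP gave 100, 275, 269, 295, 65, 40 and 19 to 106 in the same order, and 44 with 2 genotypes. SvbACT against SvbREP gave 8, 41 in DESeq2, 25 with the block, 32 with TMM and the block and 0 to 10 with a library left out. Against SvbACT, svb RNAi gave 53 higher and 97 lower (38 and 173 with TMM), and in all 443 in DESeq2, 492 with the block, 498 with TMM and the block, 87 with 2 genotypes and 53 to 197 with a library left out. Against SvbREP it gave 57 and 114 (40 and 175 with TMM), and in all 437, 470, 470, 67 and 66 to 224. Any difference gave 606, 1139 in DESeq2, 1461 with the block, 1247 with TMM and the block and 227 to 770. With 3 libraries a genotype and an Ldh spread of 0.78 log2 units, differences of Ldh are the least certain of the 10.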
